A study of Arabidopsis thaliana with 6 samples.

Results

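The AIL/PLT genes of Arabidopsis thaliana are a clade of 8 genes that encode transcription factors with paired AP2 DNA-binding domains: AINTEGUMENTA (ANT), AINTEGUMENTA-LIKE1 (AIL1), PLETHORA1 (PLT1), PLT2, PLT3 (also AIL6), BABY BOOM (BBM), PLT5 (AIL5) and PLT7 (AIL7). They were taken by locus identifier from 37899 annotated nuclear genes of the TAIR10.1 assembly. On chromosome 1 lie AIL1 (AT1G72570, chr1:27331381-27333698, plus strand) and PLT2 (AT1G51190, chr1:18977176-18980618, plus). PLT1 is AT3G20840 (chr3:7300444-7303693, plus) and ANT is AT4G37750 (chr4:17739514-17742407, plus). Chromosome 5 holds PLT3 (AT5G10510), PLT7 (AT5G65510), BBM (AT5G17430, chr5:5742393-5745748, minus) and PLT5 (AT5G57390, chr5:23252989-23256703, minus). Trimethylation of lysine 27 of histone H3 (H3K27me3) was measured over them by sequencing of immunoprecipitated chromatin (ChIP-seq) from 14-day-old seedlings of wild type (wt, accession Col) and of brm, which carried the brm-1 allele, a T-DNA insertion described by the study as null, in the same background. BRM is the motor subunit of SWI/SNF complexes, which move nucleosomes. For each genotype there were 2 H3K27me3 libraries, which the study describes as independent biological samples, and 1 input library made from chromatin without immunoprecipitation, so there were 6 libraries. The study describes the material as seedlings grown on agar. It mentions no separation of root and shoot and no treatment that differed between the genotypes.

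H3K27me3 is deposited by Polycomb Repressive Complex 2 and is found over genes kept silent in most cells of a tissue. AIL/PLT proteins act in dividing tissue: PLT1 and PLT2 specify the root stem cell niche, BBM induces somatic embryos when expressed ectopically, ANT promotes the growth of organ primordia, and PLT3, PLT5 and PLT7 act in lateral root formation and in the arrangement of organs at the shoot apex. Transcripts of the root members accumulate mainly near the root tip, so most cells of a seedling do not use them. In such a mixed tissue, a mark present in more cells and a denser mark per cell cannot be told apart.

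The H3K27me3 libraries held 8408612 to 9593473 mapped reads and the inputs 5676681 and 6342835. Distinct positions made up 23.4% and 27.9% of H3K27me3 reads in wt and 28.3% and 38.2% in brm, so repeated reads were fewer in brm replicate 2. AGAMOUS (AG) and FLOWERING LOCUS C (FLC), both well known Polycomb targets, had 86.8 and 97.2 reads per 1000000 mapped reads per kb (RPM per kb) in wt, against 1.73 for ACTIN7 and 1.046 for TUB2, which are expressed throughout the plant. BRM itself had input reads in both genotypes (97.1 in wt and 74.2 in brm per 1000000), and the libraries hold no measure of its transcript, so the genotype labels could not be checked from these data.

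The promoters of 4 members are shown because they span the range of upstream H3K27me3 described further on. Each is the 250 bases before the annotated start, 5′ to 3′ on the strand of the gene, from the RefSeq TAIR10.1 genome. Capitals mark GAGAGA, AAACCCTA and TGTCTC or their reverse complements. GAGAGA is a repeat bound by BASIC PENTACYSTEINE proteins, AAACCCTA is the telobox, and TGTCTC is an auxin response element bound by ARF proteins. AIL1 (chr1:27331131-27331380, plus strand) had the highest level over the gene, PLT2 (chr1:18976926-18977175, plus strand) the highest 1 kb upstream in wt, PLT3 (chr5:3315151-3315400, plus strand) a region that ended inside the gene, and PLT7 (chr5:26185343-26185592, plus strand) the lowest level both over the gene and upstream.
AIL1: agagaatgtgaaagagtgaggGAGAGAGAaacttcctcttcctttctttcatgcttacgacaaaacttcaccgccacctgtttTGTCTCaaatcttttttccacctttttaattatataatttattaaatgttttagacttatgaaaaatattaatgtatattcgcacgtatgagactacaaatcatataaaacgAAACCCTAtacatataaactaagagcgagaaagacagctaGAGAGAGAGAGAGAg
PLT2: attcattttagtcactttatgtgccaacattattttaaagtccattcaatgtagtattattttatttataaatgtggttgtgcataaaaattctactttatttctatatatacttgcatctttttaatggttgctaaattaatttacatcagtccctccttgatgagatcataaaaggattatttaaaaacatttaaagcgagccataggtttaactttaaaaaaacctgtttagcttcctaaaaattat
PLT3: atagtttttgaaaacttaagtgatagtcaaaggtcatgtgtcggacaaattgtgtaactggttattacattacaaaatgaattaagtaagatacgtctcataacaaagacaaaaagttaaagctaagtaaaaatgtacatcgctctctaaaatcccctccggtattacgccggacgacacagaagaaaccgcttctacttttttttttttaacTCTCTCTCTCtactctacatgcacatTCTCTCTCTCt
PLT7: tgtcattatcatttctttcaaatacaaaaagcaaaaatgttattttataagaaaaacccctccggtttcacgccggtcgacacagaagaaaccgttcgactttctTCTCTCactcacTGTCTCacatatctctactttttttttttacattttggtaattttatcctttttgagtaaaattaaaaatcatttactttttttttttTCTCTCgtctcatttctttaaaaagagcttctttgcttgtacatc
GAGAGA on either strand occurred in 6 of the 8 promoters, with 7 overlapping matches in AIL1, 6 in PLT3, 4 in BBM, 2 in PLT7 and 1 each in ANT and PLT1. It occurred in 20.6% of the 27443 promoters of that length of protein-coding genes. TGTCTC occurred in AIL1, BBM and PLT7 (10.9% of all promoters), where the BBM match overlapped its GAGAGA run, and AAACCCTA in AIL1 alone (4.49%). PLT2 and PLT5 had none of these letters in the window. A match here is a description of the sequence and not evidence of binding.

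The first question was how much H3K27me3 the members carried in wt. All 8 stood above the wt input over the gene span, by 2.13-fold at PLT7 to 11.7-fold at AIL1. PLT2 stood 10.2-fold above input, PLT5 8.88-fold, BBM 8.53-fold, PLT1 7.81-fold, ANT 3.73-fold and PLT3 2.45-fold. In edgeR's quasi-likelihood test over 36618 genes, all 8 passed an adjusted p of 0.05 (highest 0.0018, at PLT7), where 17.2% of all genes did. In brm all 8 again stood above the brm input, from 1.78-fold at PLT7 to 9.18-fold at AIL1, where 17.1% of all genes did. Without brm replicate 2, PLT7 was no longer called above the brm input (log2 ratio 0.65, adjusted p = 0.116), which left 7 members called. Scaling mattered for the size of this enrichment: TMM scaling moved the median of all genes against the wt input from -2.31 to -0.39 on the log2 scale, where the members lay between 3.01 (PLT7) and 5.46 (AIL1), and raised the genes called above the wt input from 6314 to 9580.

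Levels per length fell into separate ranges in wt. AIL1, whose gene span was the shortest at 2318 bp, was highest at 101.4 ± 11.6 RPM per kb (mean ± SD, n = 2 libraries, as for the values that follow). PLT1 followed at 78.4 ± 6.22, PLT2 at 76.2 ± 6.27, PLT5 at 68.6 ± 11.8 and BBM at 67.3 ± 4.93 RPM per kb. The libraries of each of these 4 overlapped those of the next in order, so their order is within the spread. ANT had 36.0 ± 0.92, PLT3 24.5 ± 0.81 and PLT7 20.8 ± 1.12 RPM per kb, each with both libraries below both libraries of the member before it. All inputs over the members lay between 7.46 and 10.04 RPM per kb.

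In brm AIL1 was again the highest, at 90.7 ± 8.34 RPM per kb, and PLT7 the lowest, at 15.1 ± 2.59. BBM had 66.5 ± 2.31, PLT1 63.3 ± 2.39, PLT2 61.8 ± 0.50 and PLT5 56.0 ± 4.16 RPM per kb. PLT3 at 28.5 ± 0.96 and ANT at 28.0 ± 2.04 RPM per kb overlapped. Among the 7229 genes marked in wt the median level was 42.2 RPM per kb, and AIL1 exceeded 94.8% of them, PLT1 85.5%, PLT2 84.3%, ANT 40.5%, PLT3 19.9% and PLT7 13.0%. The corresponding shares in brm, over 7677 marked genes with a median of 39.3 RPM per kb, were 95.1% for AIL1, 80.01% for PLT1, 78.8% for PLT2, 30.7% for ANT, 31.5% for PLT3 and 5.88% for PLT7.

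**Figure D1:**
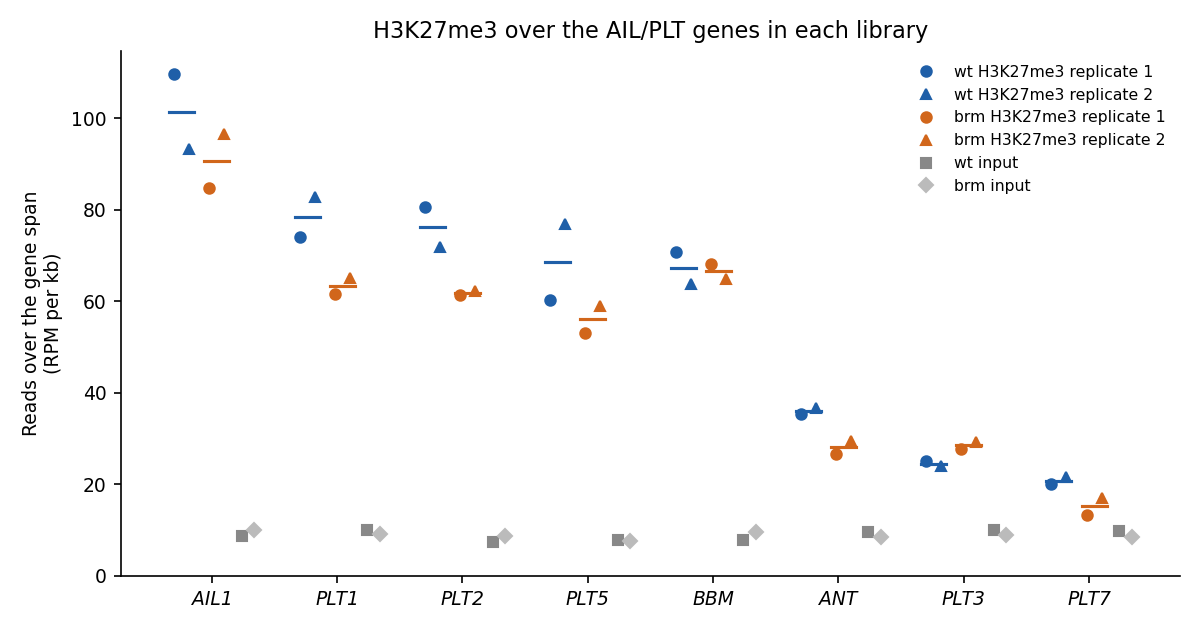
H3K27me3 and input reads over the gene span of each AIL/PLT gene in RPM per kb; points are the 6 libraries and horizontal bars the means of the 2 H3K27me3 libraries of a genotype. AIL1 lies highest in both genotypes, 4 members lie between 53.1 and 82.8 RPM per kb, and ANT, PLT3 and PLT7 lie below 37, nearer to the inputs.

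H3K27me3 regions found in both replicates reached every member in both genotypes, and 8352 of all 37899 genes in wt and 8751 in brm. They covered at least 50% of the span of 6 of the 8 members, ANT, AIL1, PLT1, PLT2, BBM and PLT5. By that rule these 6 were marked in wt, as were 19.1% of all genes, and the same 6 in brm, as were 20.3%. Their coverage was 99.8% to 100% in wt and 93.8% to 100% in brm. PLT3 had 40.6% of its span in a wt region and 48.7% in a brm region, and PLT7 35.4% and 45.4% (45.4% also in wt replicate 1 alone), so both stayed under the rule in each genotype.

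The regions differed in extent. They were called on distinct reads, of which the wt libraries held 2385590 and 2115598 and the brm libraries 2719420 and 3213347. The part of this difference in the lengths of the regions was not tested. The wt region at PLT1 was 13200 bp long and began 8443 bp before the start of the gene, and in brm it was 19200 bp long and began 14643 bp before. These are stretches found in both replicates, and the shorter one in wt was set by wt replicate 2, since wt replicate 1 alone gave 18800 bp and the brm replicates 19200 and 21000 bp. At PLT2 the region was 13200 bp in wt and 12400 bp in brm, and at PLT5 it was 13000 bp in both. The difference at PLT2 came from brm replicate 1 alone, brm replicate 2 having the 13200 bp of wt. That at PLT5 also covered part of VIN3 (VERNALIZATION INSENSITIVE 3), the next gene downstream, and the wt region at PLT1 also contained the neighbouring gene AT3G20850. AIL1 lay in a region of 7400 bp in wt and 7600 bp in brm that continued 3902 and 4102 bp past its end, over AT1G72580 and AT1G72590. The BBM region was 7600 bp in wt and 7000 bp in brm, where brm replicate 2 alone had 7600 bp. At ANT the region was 3600 bp in wt and 5600 bp in brm and held no other gene, with 5000 and 3800 bp in the single wt replicates and 5600 and 6000 bp in those of brm. The shortest was at PLT7, with 1600 bp in wt and 2000 bp in brm, but the region of wt replicate 1 was the same 2000 bp as in both brm replicates, and wt replicate 2 set the shorter one.

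PLT3 and PLT7 stood apart in where along the gene their reads lay. PLT3 spans chr5:3315401-3320323 on the plus strand, and its region ended 2000 bp after the start in wt and 2400 bp after it in brm, leaving the last 2923 and 2523 bp outside. With the span cut into 10 equal parts, PLT3 had 58.6 and 61.8 RPM per kb in part 1 in the wt libraries and 46.4 and 59.7 in the brm libraries. In part 6 it had 1.42 and 0.67 RPM per kb in wt and 8.05 and 5.80 in brm. The 5′ side of PLT3, the first 50% of the span, held 97.3% and 97.6% of its reads in wt and 93.9% and 95.7% in brm, against 50% and 48.4% in the wt and brm inputs. Over the 3′ side, the other 50%, the level at PLT3 was 3.07 ± 0.28 RPM in wt and 7.26 ± 1.52 in brm, both below the inputs at 24.6 and 22.6 RPM. In edgeR, over the 3′ sides of 23209 genes, PLT3 had a log2 fold change of 1.24 in brm against wt. Its 95% interval ran from -0.12 to 2.6 (SE 0.63, adjusted p = 0.796), so PLT3 was not called. The fit was added after seeing these data and rested on few reads, 28 and 26 in wt and 80 and 52 in brm.

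PLT7 spans chr5:26185593-26189571 on the plus strand, and its region ended 1408 bp after the start in wt replicate 2 and 1808 bp after it in wt replicate 1 and both brm replicates. Its highest level was in part 3 of 10, with 71.0 and 103.3 RPM per kb in wt and 43.2 and 69.6 in brm. The 5′ side of PLT7 held 82.5% and 87.2% of its reads in wt and 79.5% and 94.5% in brm, against 45.5% and 51.0% in the inputs. These ends inside the gene did not follow the ends of the annotated transcripts. All 7 annotated PLT3 transcripts ended between positions 3320008 and 3320323 with coding sequence to 3320008, and the 4 of PLT7 ended at 26189413 or 26189571. The last 454 bp of PLT3 overlap RBK1 on the other strand, which ChIP-seq reads cannot separate, and no other member overlaps an annotated gene.

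The remaining members had more reads on the 5′ side than on the 3′ side as well, in every H3K27me3 library. PLT5 had 68.1% and 74.5% in wt and 70.7% and 72.8% in brm, PLT2 62.4% and 66.1% in wt and 66.2% and 62.8% in brm, and BBM 59.4% and 65.9% in wt and 65.8% and 63.1% in brm. PLT1 had 58.4% and 60.3% in wt and 56.3% and 62.5% in brm. In the wt and brm inputs the shares were 51.1% and 49.4% at PLT5 and 53.0% and 44.8% at BBM. At PLT1 they were 53.1% and 53.9%, and at PLT2 60.7% and 53.0%. The wt input of PLT2 thus lay close to its 62.4% in wt replicate 1. Over 5781 marked genes the median share was 54.4% to 54.8% in the 4 libraries, with lower and upper quartiles of 45.1% to 46.4% and 63.0% to 64.9%. The median over the 8 members was 65.0% (SD 1.45 over the 4 libraries), and PLT3, PLT5 and PLT7 lay above the upper quartile in all 4. The 5781 genes were marked in both genotypes, as was PLT5, but PLT3 and PLT7 were not and are outside this set. Genes with a region over only a small 5′ part are left out of the set by the coverage rule. The quartiles therefore cannot show whether PLT3 and PLT7 are unusual among such genes.

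**Figure D2:**
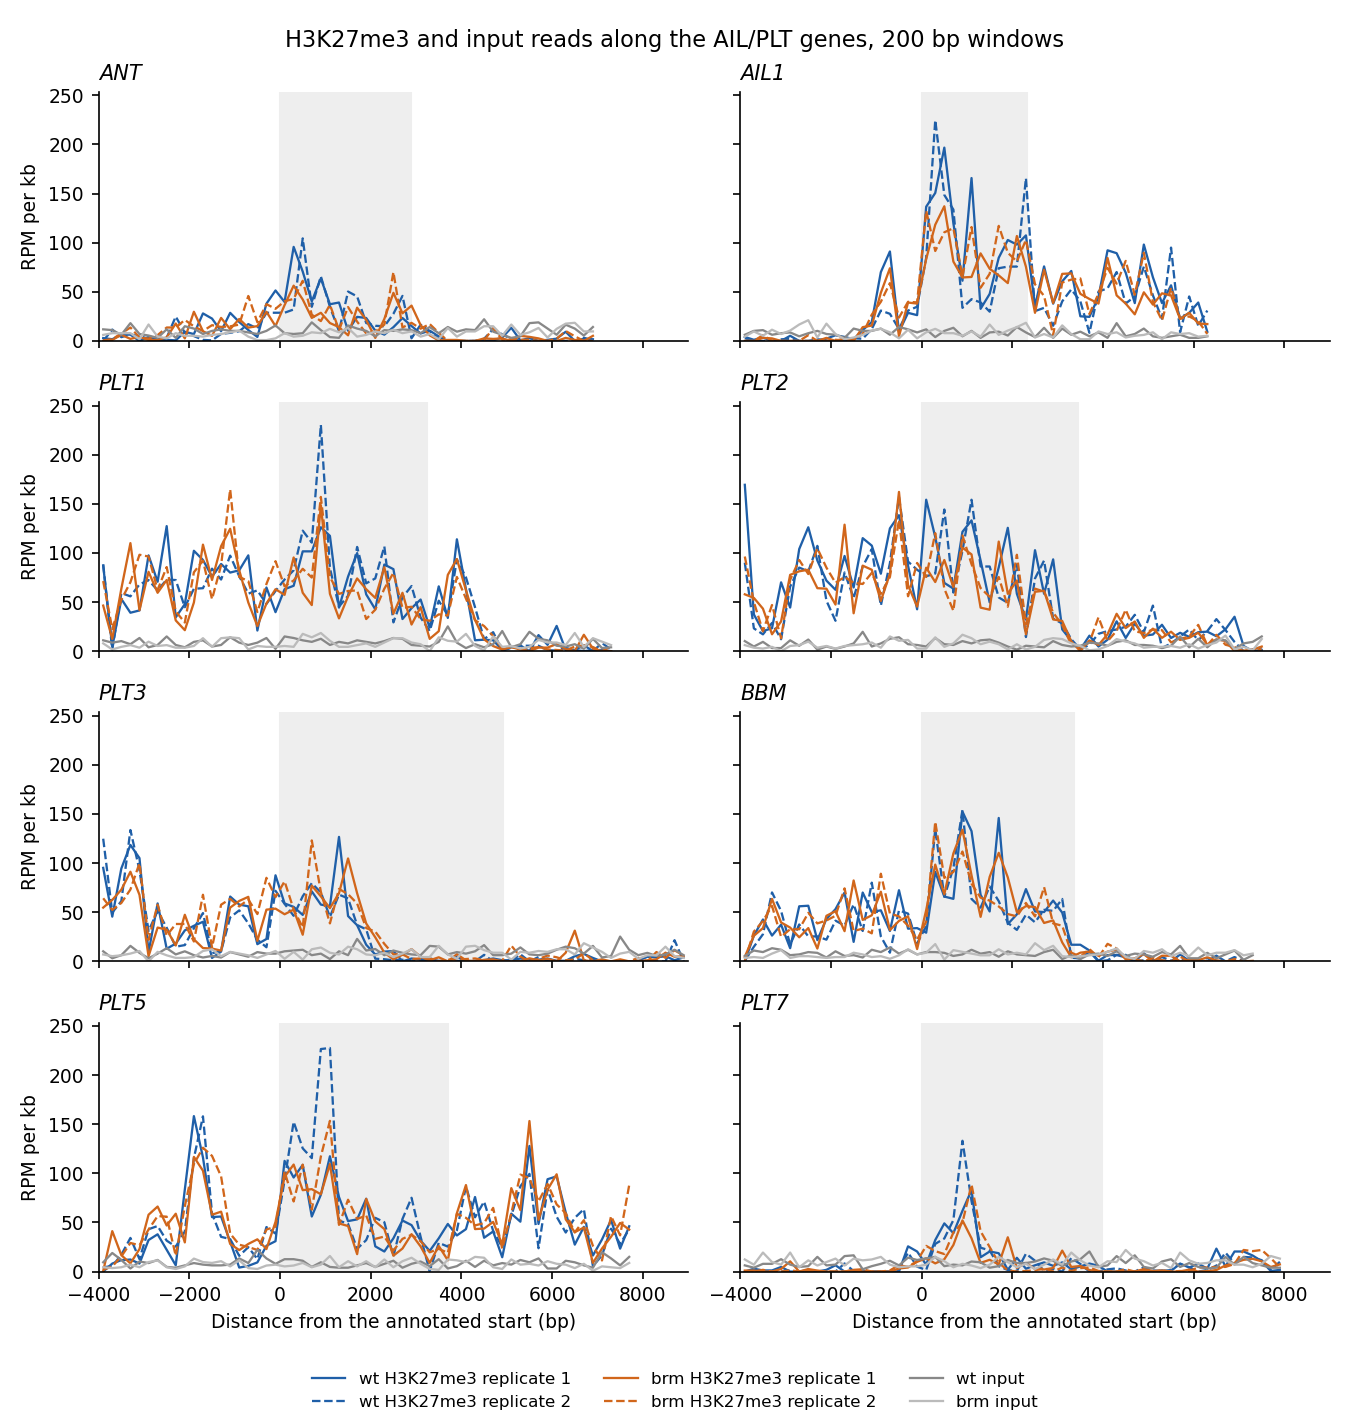
Reads in windows of 200 bp along each AIL/PLT gene in RPM per kb, with distance from the annotated start in bp in the direction of transcription; grey shading is the gene span and lines are the 6 libraries. H3K27me3 at PLT3 and PLT7 drops to or below the input inside the gene.

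**Figure D3:**
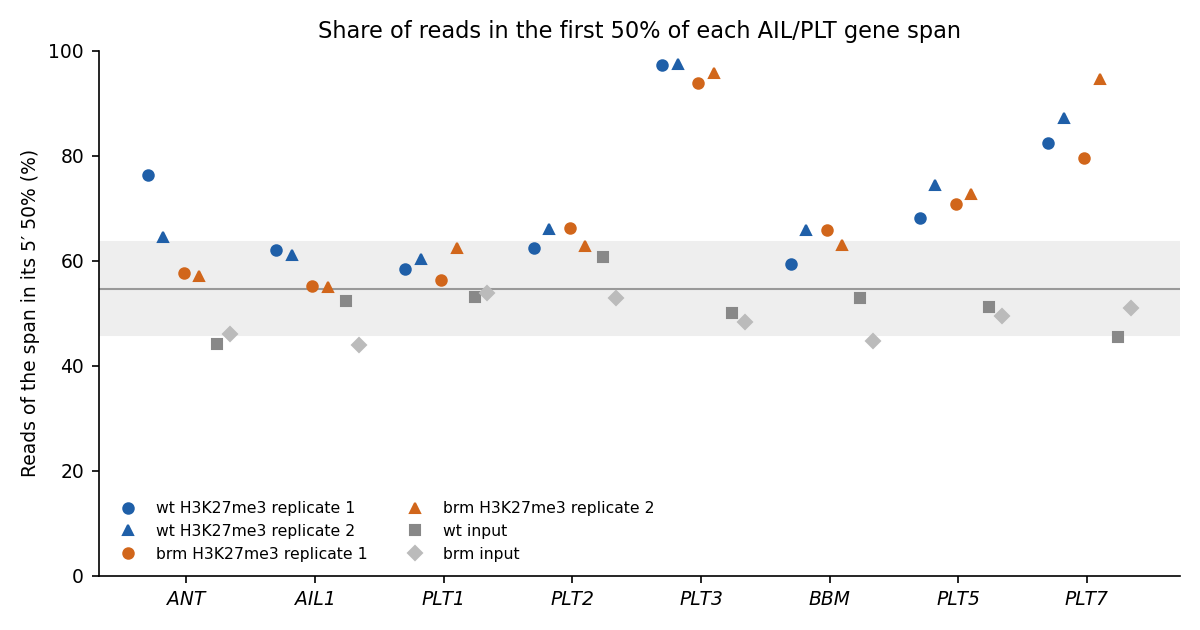
Share of the reads of each gene span that lay in its first 50%, in percent, for the 6 libraries; the grey line and band are the median and quartiles of 5781 marked genes, averaged over the 4 H3K27me3 libraries. PLT3 lies between 93.9% and 97.6% and PLT7 between 79.5% and 94.5%, above the band, but neither is among the 5781 marked genes. With all reads, as shown, the ANT and AIL1 values of brm lie below those of wt.

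With all reads, the share on the 5′ side did not overlap between genotypes at ANT, AIL1 and PLT3, with the lower values in brm at each. Both brm values lay below both wt values at 16.9% of the 5781 marked genes, which include ANT and AIL1 but not PLT3, and above them at 18% of those genes, so the count among the members was read as a description. ANT had 76.4% and 64.6% in wt and 57.6% and 57.2% in brm, and AIL1 62.1% and 61.1% in wt and 55.2% and 54.9% in brm. Both brm values of ANT and AIL1 lay within the quartiles of the 5781 marked genes. With 1 read per position and strand the shares of ANT and AIL1 overlapped between genotypes. ANT then had 63.88% and 58.82% in wt and 61.43% and 62.81% in brm, and AIL1 58.38% and 55.35% in wt and 59.96% and 53.54% in brm. Those of PLT3 still did not overlap, with 96.33% and 97.32% in wt and 92.6% and 93.61% in brm. In RPM with repeated reads kept, the 5′ side of ANT had 44.3 and 48.8 in brm against 78.1 and 68.5 in wt. Its 3′ side had 32.6 and 36.5 in brm and 24.2 and 37.6 in wt. This contrast between the sides was not seen with 1 read per position and strand, where the shares of ANT overlapped. Scaled to the distinct reads of each library, the whole span of ANT then had 95.2 and 96.4 in wt and 77.2 and 75.3 in brm. Tested on the 5′ sides of 26471 genes, an alternative chosen after seeing these data, ANT had a log2 fold change of -0.66 (SE 0.22, adjusted p = 0.561), and AIL1 one of -0.32 (SE 0.19, adjusted p = 0.800). Neither passed the threshold. The difference between the sides was not tested.

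The main comparison asked whether loss of BRM changed H3K27me3 over the members. No member passed an adjusted p of 0.05 in edgeR's test over the gene span, where all 8 were among 30906 genes tested and 0.175% of genes were called. At an unadjusted p of 0.05, 3 members passed, PLT1, PLT2 and PLT7, as did 2392 of all genes, and DESeq2 called none of the 8. Of the fitted log2 fold changes, 7 were below 0 and 1, that of PLT3, above it, although the BBM value turned to slightly above 0 with TMM scaling and with DESeq2. Values below 0 were also found at 16606 of the 30906 genes tested and at 4180 of 6909 tested genes marked in both genotypes. The median of the 8 members was -0.30, beside -0.05 over all genes tested and -0.07 over those marked in both genotypes. The marked controls AG and FLC had log2 fold changes of -0.23 and -0.36 (adjusted p = 0.707 and 0.505). Among marked genes the upper quartile of the level was 63.3 RPM per kb in wt and 57.8 in brm, and the 95% quantile 102.8 and 90.4. Whether the members differed from other genes of like level was not tested.

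PLT1 and PLT2, the regulators of the root stem cell niche, had similar values. PLT1 had 240.4 and 269 RPM (reads per 1000000 mapped reads, not divided by length) over its span in wt and 200.3 and 211 in brm, so both brm libraries were lower. Its log2 fold change was -0.31 (SE 0.15, 95% interval -0.61 to -0.0028, adjusted p = 0.640). PLT2 had 278 and 247 RPM in wt and 211 and 214 in brm, again without overlap. Its log2 fold change was -0.30 (SE 0.14, 95% interval -0.61 to -0.00047, adjusted p = 0.644).

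BBM, the inducer of somatic embryos, had nearly the same level in both genotypes. Its 238 and 214 RPM in wt and 229 and 218 in brm overlapped, with a log2 fold change of -0.017 (95% interval -0.32 to 0.29, adjusted p = 0.993). ANT, which acts in organ growth, had 102 and 106 RPM in wt and 76.9 and 85.3 in brm. Its libraries did not overlap, and its log2 fold change was -0.36 (SE 0.18, 95% interval -0.73 to 0.0051, adjusted p = 0.653). AIL1 had 254 and 216 RPM in wt and 196 and 224 in brm, which overlapped (log2 fold change -0.16, 95% interval -0.48 to 0.155, adjusted p = 0.869).

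Of the members that act in lateral roots and at the shoot apex, PLT5 and PLT7 were lower in brm and PLT3 higher, none past the threshold. PLT5 had 224 and 286 RPM in wt and 197 and 219 in brm, with a log2 fold change of -0.29 (95% interval -0.62 to 0.033, adjusted p = 0.699). The wt libraries of PLT5 differed most among the members, and without wt replicate 1 PLT5 was called lower in brm, by -0.46 on the log2 scale (adjusted p = 0.0406), in a fit in which the lone wt library is assumed to vary like brm and 2.75% of 32620 genes were called. Without wt replicate 2 the log2 fold change of PLT5 was -0.10 (adjusted p = 0.871). PLT7 had 79.4 and 85.7 RPM in wt and 53.0 and 67.5 in brm, with the lowest log2 fold change of the clade, -0.46 (SE 0.20, 95% interval -0.87 to -0.042, adjusted p = 0.590). PLT3 had 123 and 118 RPM in wt and 137 and 143 in brm, and was the only member with both brm libraries above both wt libraries (log2 fold change 0.22, 95% interval -0.12 to 0.55, adjusted p = 0.811).

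Both brm libraries lay below both wt libraries at 5 of the 8 members, ANT, PLT1, PLT2, PLT5 and PLT7. This held at 20.2% of all genes tested and at 25.5% of the genes marked in both genotypes. The reverse held at PLT3, at 17.4% of all genes tested and at 15.1% of those marked in both. With intervals that reach no lower than -0.87 and no higher than 0.55 on the log2 scale, a 2-fold change in either direction over a whole gene span lay outside the 95% interval of every member.

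**Figure D4:**
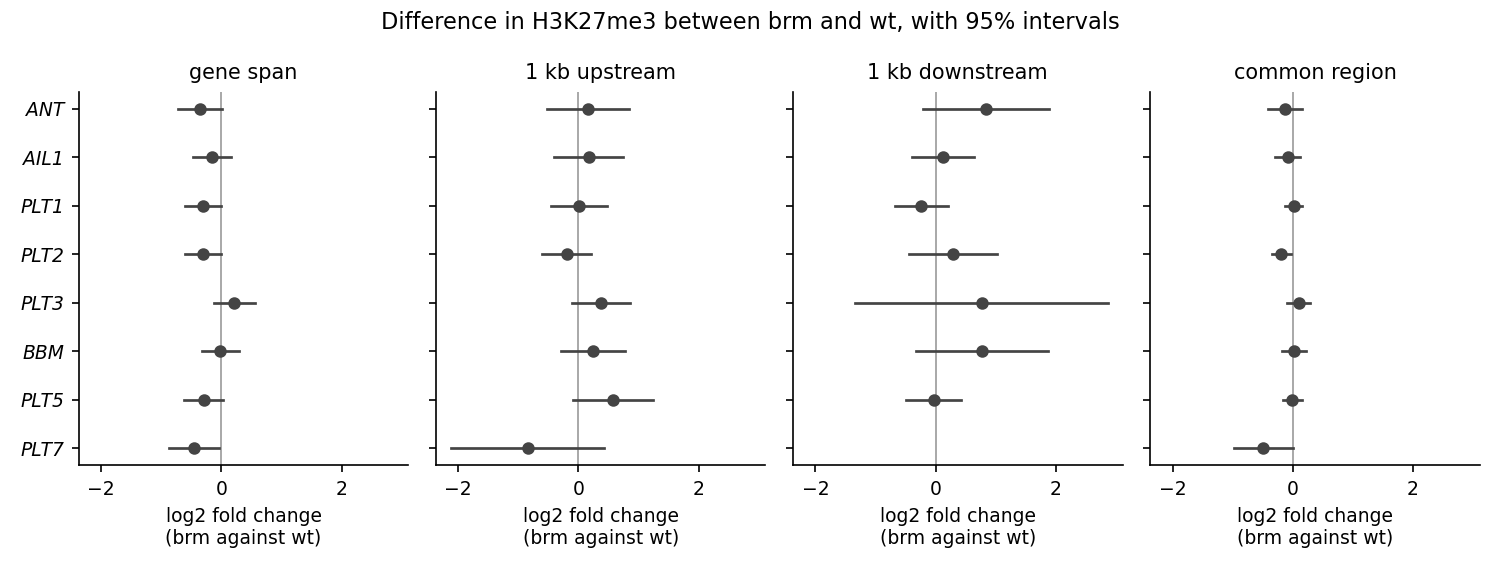
log2 fold change of H3K27me3 reads in brm against wt (points) with 95% intervals (lines) for each AIL/PLT gene over the gene span, the 1 kb on each side and the H3K27me3 region at the gene; the downstream side of PLT7 had too few reads to be tested. No value passed an adjusted p of 0.05, and the gene-span values lie between -0.46 and 0.22.

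The 1 kb upstream of the start gave a different order of levels. PLT2 had the most, with 94.4 and 93.4 RPM in wt and 80.9 and 82.7 in brm, followed by PLT1 with 61.1 and 61.2 in wt and 53.8 and 69.3 in brm. PLT7 had 9.22 and 5.30 RPM in wt and 3.44 and 4.64 in brm, below its inputs at 10.2 and 7.40 RPM, so its mark began close to the start. No member passed the edgeR test upstream, at an unadjusted p of 0.05 or adjusted, among 24227 genes of which 0.0124% were called, and DESeq2 called none of the 8. The median log2 fold change over all upstream windows was 0.12, and -0.02 with TMM scaling, so that values near 0.12 are level with the rest of the genome.

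PLT5 and PLT3 had the largest upstream values in brm relative to wt. Upstream of PLT5 there were 15.3 and 27.5 RPM in wt and 31.3 and 32.6 in brm, a log2 fold change of 0.58 (SE 0.31, adjusted p = 0.630). Upstream of PLT3 there were 48.3 and 39.8 in wt and 50.9 and 63.5 in brm, a log2 fold change of 0.38 (SE 0.23, adjusted p = 0.686). With repeated reads reduced to 1 per position and strand, both were called higher in brm, where 5.33% of 13770 upstream windows were called. PLT3 then had 41.9 and 38.8 distinct reads per 1000000 distinct reads in wt and 62.9 and 66.3 in brm (log2 fold change 0.68, adjusted p = 0.0063), and PLT5 18.02 and 22.2 in wt and 32.0 and 39.2 in brm (log2 fold change 0.84, adjusted p = 0.0113). The share of distinct reads was itself higher in brm, and its part in these values was not tested.

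Downstream, PLT1 had 59.9 ± 0.74 RPM in wt and 50.6 ± 4.41 in brm, PLT5 51.7 ± 6.17 and 50.4 ± 4.03, and AIL1 48.6 ± 12.6 and 52.9 ± 8.83, each above input. At PLT3 and PLT7 the H3K27me3 libraries were below input. None of the 7 members tested passed the edgeR test there, at an unadjusted p of 0.05 or adjusted, and 0% of 24154 genes were called. DESeq2 called none of the 7 either.

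Over the H3K27me3 regions, which also take in neighbouring sequence, no member was called, where 3.60% of 5309 regions were. DESeq2 called none, and 2 passed an unadjusted p of 0.05, as did 993 of the 5309. They were the regions of PLT2, with 818 and 730 RPM in wt and 660 and 692 in brm, a log2 ratio of -0.19 (SE 0.08, adjusted p = 0.160), and of PLT7, with 69.2 and 75.3 in wt and 37.1 and 65.8 in brm, a log2 ratio of -0.49 (SE 0.24, adjusted p = 0.266). The value of the PLT7 region was -0.96 without brm replicate 2 (adjusted p = 0.154) and -0.14 without brm replicate 1 (adjusted p = 0.968). With 1 read per position and strand the PLT2 region was called lower (log2 fold change -0.22, adjusted p = 0.0186), where 11.2% of 5306 regions were called. The regions of PLT1 (0.013), BBM (0.016) and PLT5 (-0.0080) had log2 fold changes close to 0.

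The clade was set beside 10 other genes with paired AP2 domains, the AP2-like floral regulators and the WRINKLED genes. Their median level was 1.66 RPM per kb in wt and 2.12 in brm, against 67.9 and 58.9 in the clade, and 1 of the 10 was above input in wt and 2 in brm. By coverage SNZ (SCHNARCHZAPFEN) was marked in both genotypes and SMZ (SCHLAFMUTZE) in brm. SMZ, a floral repressor targeted by miR172, was the only one of the 10 called. SMZ rose from 16.5 ± 7.71 RPM in wt to 51.5 ± 8.25 in brm, by 1.64 on the log2 scale (SE 0.31, adjusted p = 0.0284), and it lost that call without brm replicate 1 (adjusted p = 0.427). Its span overlaps AT3G54980. The study reports raised H3K27me3 in brm at several flowering time genes, by ChIP-seq and by PCR on chromatin of independent samples. It lists SMZ primers for that PCR, and its expression test of these genes included SMZ, with no clear decrease there. The median log2 fold change of the 10 was 0.11, with 7 above 0, as were 14300 of the 30906 genes tested.

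Of 31 genes that act before, with or after AIL/PLT genes, such as the RGF peptides that stabilise PLT proteins, the PIN auxin carriers, the YUC auxin synthesis enzymes and the LEC1, LEC2, FUS3 and ABI3 embryo regulators, 17 were marked in each genotype. Among the 30 tested, none was called higher in brm and 1 was called lower. The median log2 fold change of the 30 was -0.18, with 24 below 0. Below 0 were also 16606 of the 30906 genes tested and 4180 of the 6909 marked in both genotypes. The 1 called was AGL15, a MADS-domain factor of embryos, with 70.3 ± 8.53 RPM in wt and 30.1 ± 0.99 in brm (a log2 ratio of -1.22 with SE 0.22 and adjusted p = 0.0202). AGL15 lost the call without either brm library (adjusted p = 0.344 without replicate 1 and 0.178 without replicate 2).

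**Figure D5:**
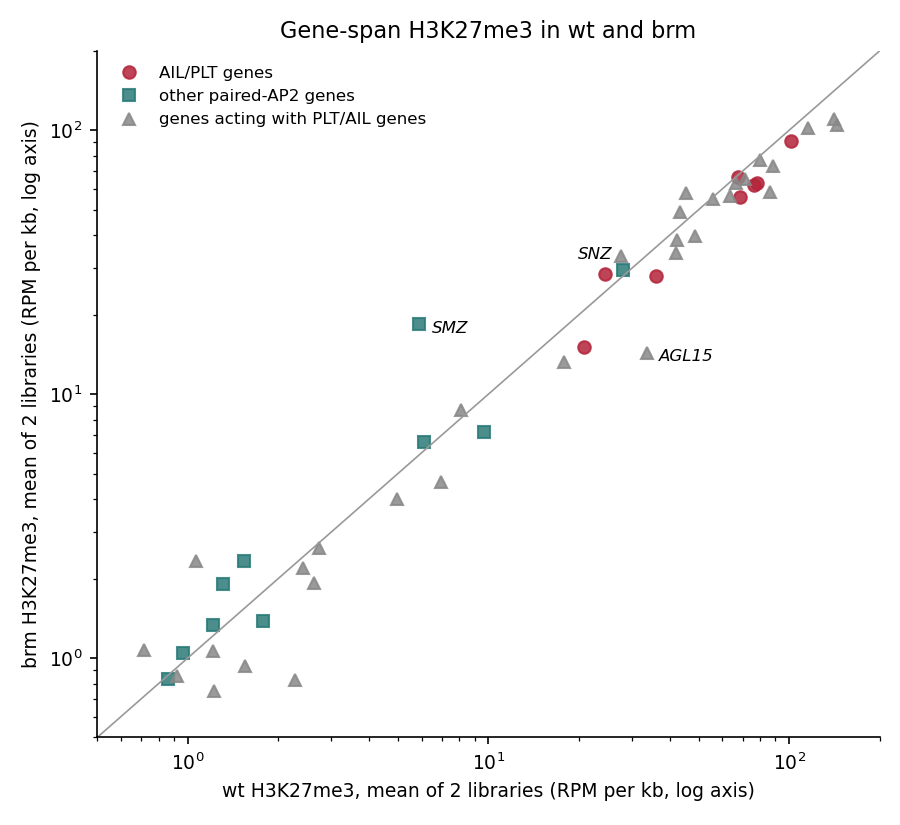
Mean H3K27me3 over the gene span in brm against wt in RPM per kb, both on log axes, for the 8 AIL/PLT genes, 10 other paired-AP2 genes and 31 genes that act with them; each point is a gene and the line marks equal levels. The AIL/PLT genes lie near the line between 15.1 and 101.4, while SMZ lies above it and AGL15 below.

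Over the 4 H3K27me3 libraries the median of the clade was 65.5, 67.8, 57.3 and 60.6 RPM per kb. The protein-coding genes nearest to it, by Euclidean distance of log2 (RPM per kb + 0.1) over these 4 libraries, were BOP2 (distance 0.0561), a regulator of leaf and flower patterning, CTL2 (0.0679), a chitinase-like protein, and AT3G60670 (0.0805). BOP2 had 65.9 and 66.2 RPM per kb in wt and 58.5 and 61.8 in brm.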

How the data were processed

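Seedlings of wt and brm were profiled by H3K27me3 ChIP-seq with 2 immunoprecipitated libraries and 1 input for each genotype. The authors mapped reads to TAIR10 and kept uniquely and perfectly mapped ones, and the submitters' processing notes name Bowtie 0.12.7 and SICER 1.1. The deposited files list 1 read of 37 bp per line, so the values used are counts of deposited reads, with repeated reads kept and no normalization by the authors. Unique mapping separates the members but loses reads of repeats.

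Each read was placed at its 5′ end moved 75 bp inwards and counted over TAIR10.1 gene spans, the 1000 bp on each side and H3K27me3 regions. RPM is reads per 1000000 nuclear reads of the library. Counts were compared with edgeR 4.0.16 (R 4.3.3), a quasi-likelihood test with total reads as library size, filterByExpr and Benjamini-Hochberg adjustment over all features at 0.05; every adjusted p-value is from this test. Enrichment over input used all 6 libraries, with the spread shared because each genotype had 1 input. An exact test of 2 against 2 libraries cannot go below p = 0.333, so none was used. Regions were rebuilt after SICER, with 1 read per position and strand, windows of 200 bp, gaps of up to 600 bp and a Poisson test against input at a false discovery rate of 0.01, and bases found in both replicates were kept. The ChIPDiff program of the study's methods was not used. Promoters were read from the genome sequence and not, as planned, from a promoter table. The scripts were tested on simulated data.

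The members and gene lists were chosen with earlier results of these data known. All 8 members were named, the genes of 2 lists that passed the threshold, and the 3 genes most alike in level, with AG, FLC, ACTIN7, TUB2 and BRM as controls. Alternatives were TMM scaling over all or marked features, DESeq2 1.42.0, no low-count filter, 1 read per position and strand, no shift, leaving out each library, a replicate block and an input interaction. For regions they were any overlap, 80% coverage, a false discovery rate of 0.0001 and gaps of 200 bp. Fits on the 5′ and 3′ 50% of the gene were added after seeing the data.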

Additional observations from a re-analysis of the deposited data

How the results depend on the processing

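The calls over the gene span, both flanks and the regions stayed at 0 members under every alternative run, with these exceptions: 2 upstream (PLT3 and PLT5) and 1 region (PLT2) with 1 read per position and strand, and 0 to 1 over the gene span (PLT5) when each library was left out in turn. Members above the brm input ranged from 7 to 8 on leaving out libraries, and the 6 marked members became 8 in each genotype when any overlap was enough. Deviations of replicate 1 in wt and brm had r = 0.059 over 6924 genes, which cannot show whether libraries of the same replicate number were paired. The replicate block called 0 members and turned PLT1 upstream to -0.0012. Other directions that turned, all on the log2 scale and without a call, were BBM over the gene span to 0.0196 with TMM scaling, 0.0174 with DESeq2, 0.0396 with TMM over marked genes and 0.029 over the 5′ side; ANT and AIL1 to 0.16 and 0.066 over the 3′ side; PLT1 upstream to -0.13 with TMM, -0.14 with DESeq2 and -0.14 with TMM over marked windows; PLT7 upstream to 0.16 and AIL1 downstream to -0.11 with 1 read per position and strand; AIL1 downstream to -0.0155 without the shift; and the regions of PLT5 to 0.0016 with TMM over marked regions and of PLT5 and ANT to 0.17 and 0.44 with the input interaction. The causes were not tested. Over all genes the gene-span test called 54, against 133 with DESeq2, 184 without the low-count filter, 211 with 1 read per position and strand, 180 with the replicate block, 2 with the input interaction, 14 and 7 over the 5′ and 3′ sides and 18 to 897 without 1 library. The counts were 3 upstream (0 downstream), with 128 (62) by DESeq2, 734 (456) with 1 read per position and strand, 111 (21) without the filter, 23 (17) with the replicate block and 1 (0) with the interaction. The region test called 191, against 593 with 1 read per position and strand, 386 with the replicate block and 19 with the interaction.

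Leaving out libraries, values ran from -0.0901 to 0.0595 for BBM over the gene span. Upstream they ran from -0.20 to 0.46 for ANT, -0.15 to 0.57 for AIL1, -0.18 to 0.18 for PLT1 and -0.0029 to 0.54 for BBM. Downstream the ranges were -0.12 to 0.42 for AIL1, -0.58 to 1.45 for PLT3 and -0.15 to 0.0927 for PLT5. In the regions they were -0.23 to 0.0708 for AIL1, -0.0328 to 0.0601 for PLT1, -0.0755 to 0.11 for BBM and -0.0674 to 0.0537 for PLT5. The input interaction, with 1 input library for each genotype, called 2 of 36618 genes and neither SMZ nor AGL15, which kept their directions.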
